A study of Mus musculus with 16 samples.

Results

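The mitochondrial ribosomal protein genes encode the protein parts of the mitoribosome, the ribosome that works inside mitochondria. They were taken as every gene of the deposited tables whose symbol begins with Mrpl or Mrps followed by a number, which gave 77 of 23996 genes, 48 with Mrpl symbols and 29 with Mrps symbols. Their products are made in the cytosol and imported, and they join mitochondrially encoded ribosomal RNA to build a large and a small subunit. This ribosome makes the few respiratory chain proteins that mitochondrial DNA encodes. The genes of its own proteins lie in the nucleus and are read by RNA polymerase II. Compared with the bacterial ribosome, the mammalian mitoribosome has lost RNA and gained proteins that have no bacterial counterpart. The 77 genes were therefore followed by class, with 29 bacterial-type and 21 mitochondria-specific proteins of the large subunit, 16 bacterial-type and 10 mitochondria-specific proteins of the small subunit, and Mrps36. The last of these carries a ribosomal symbol but its product is a part of the alpha-ketoglutarate dehydrogenase complex. Mrps18a and Mrps30 were counted with the large subunit, where their products sit in spite of their names. Mrps18a, Mrps18b and Mrps18c are all relatives of bacterial protein S18. Mrps18c was counted as bacterial-type and Mrps18a and Mrps18b as mitochondria-specific, since they are added copies at other places of the ribosome.

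RNA was sequenced from mouse MEFs, hepatocytes and ES cells that carried loxP sites around exon 1 of Ssu72 on both alleles. Ad-Cre cells, labelled KO, were infected with an adenovirus for Cre recombinase, which cuts out this exon, and Ad-Luc cells, labelled WT, received a luciferase adenovirus and kept the floxed gene. All groups therefore share the floxed alleles and an adenoviral infection. There were 3 Ad-Cre and 3 Ad-Luc samples of MEFs, 3 and 3 of hepatocytes, and 2 and 2 of ES cells, 16 in all. MEFs were embryonic fibroblasts of embryonic day 13.5, hepatocytes came from mice that the labels give as 6 weeks old (the paper's methods give another age), and ES cells came from the inner cell mass. Infection may not reach every cell, and an Ad-Cre culture can still hold cells with an intact gene. In the ES table the Ad-Cre column carries the letters ES and the Ad-Luc column the letters FS, and the FS column was read as the ES control.

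For every gene and group the authors deposited 1 FPKM, the number of fragments scaled to transcript length and library size, over all samples of the group. No value per sample stands behind it here, so there is no SD, no n and no read depth beside a level, and whether a difference is larger than the spread between samples was not assessed here. Fold changes are log2 ratios of Ad-Cre over Ad-Luc after adding 0.1 FPKM to both, and a gene was counted when it reached 1 FPKM in the higher group. All 77 genes did so in MEFs, hepatocytes and ES cells. A change was counted when it passed 1.5-fold, and again at 1.2-fold. Ssu72, which removes phosphate from the tail of RNA polymerase II and was the targeted gene, had 3.69 FPKM in Ad-Cre and 22.7 FPKM in Ad-Luc MEFs. Its level was 5.12 FPKM in Ad-Cre and 26.0 FPKM in Ad-Luc hepatocytes, and ES cells had 44.7 and 99.2 FPKM. Its log2 fold change was thus least deep in ES cells, at -1.15, against -2.59 in MEFs and -2.32 in hepatocytes.

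The cells matched their labels by the markers that define them, and some marker levels differed between the groups. In MEFs all 10 fibroblast markers were present and their summed level was 6983 FPKM in Ad-Cre and 13710.3 FPKM in Ad-Luc cells, with 7 of 10 lower past 1.5-fold. In hepatocytes 9 of 10 hepatocyte markers reached 1 FPKM, with a summed level of 5861 FPKM in Ad-Cre and 7645 FPKM in Ad-Luc cells and 6 lower past 1.5-fold. Most of these sums was Alb, at 4647 and 5207 FPKM (-0.16), while the median log2 fold change of the 9 was -0.83. Pck1 was the marker below 1 FPKM, at 0.09 and 0.16 FPKM. Proliferation markers summed to 187 and 172 FPKM in Ad-Cre and Ad-Luc MEFs, in a table normalised separately. Proliferation markers in hepatocytes summed to 218 and 266 FPKM in Ad-Cre and Ad-Luc cells, with 6 of 10 lower past 1.5-fold. Mcm2 and Pcna were higher, at log2 fold changes of 0.32 and 0.23. The 6 endothelial markers there summed to 20.9 and 14.4 FPKM, with 5 higher past 1.2-fold. Of 5 cholangiocyte markers 4 reached 1 FPKM in hepatocytes, 2 higher and 1 lower past 1.5-fold. Of 6 Kupffer cell markers 2 reached it in hepatocytes, 1 higher and 1 lower past 1.2-fold. In MEFs 4 of the 6 reached it, 2 of them higher past 1.2-fold. In ES cells all 10 ES markers were present at summed levels of 6535 and 6682 FPKM in Ad-Cre and Ad-Luc cells, none past 1.2-fold. In such bulk samples fewer cells of a type and less RNA per cell cannot be told apart, and the part of these markers in the results below was not tested.

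Promoters are shown first for 7 members on which the results turn. Mrps23, Mrps22, Mrps31 and Mrpl40 are 4 of the members with the highest log2 fold changes in MEFs, Mrpl32 is a member with the full letters of NRF1, Mrps18b had the highest log2 fold change in hepatocytes, and Mrps15 had the lowest in MEFs. Nuclear respiratory factor NRF1, the ETS family member GABP, YY1 and SP1 are factors long linked to genes of mitochondrial proteins. The sequences are those of RefSeq on GRCm38.p6, each running from 250 bases before to 50 bases after the start of the gene, 300 in all and 5′ to 3′ along the gene. Capitals mark the NRF1 palindrome with any base allowed at its sixth place, CCGGAAG (ETS), AAGATGGC (YY1) and GGGCGG (SP1), searched on both strands.
Mrps23: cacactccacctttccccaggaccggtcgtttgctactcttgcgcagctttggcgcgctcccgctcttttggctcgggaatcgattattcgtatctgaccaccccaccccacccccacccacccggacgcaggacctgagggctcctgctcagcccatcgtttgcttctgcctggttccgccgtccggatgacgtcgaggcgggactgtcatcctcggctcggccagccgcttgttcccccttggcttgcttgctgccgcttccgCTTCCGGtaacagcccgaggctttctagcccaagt
Mrps22: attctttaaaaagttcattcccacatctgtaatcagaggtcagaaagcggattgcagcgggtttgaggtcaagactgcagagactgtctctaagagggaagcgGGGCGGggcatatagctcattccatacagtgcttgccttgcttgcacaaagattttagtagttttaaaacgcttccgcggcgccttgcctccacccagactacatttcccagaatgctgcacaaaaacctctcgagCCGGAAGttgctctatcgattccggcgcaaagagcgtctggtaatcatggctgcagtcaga
Mrps31: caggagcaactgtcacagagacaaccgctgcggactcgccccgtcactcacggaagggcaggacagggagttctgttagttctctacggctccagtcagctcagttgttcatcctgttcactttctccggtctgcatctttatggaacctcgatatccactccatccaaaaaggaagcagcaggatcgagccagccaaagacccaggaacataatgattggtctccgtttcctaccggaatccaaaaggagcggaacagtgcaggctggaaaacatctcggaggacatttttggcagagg
Mrpl40: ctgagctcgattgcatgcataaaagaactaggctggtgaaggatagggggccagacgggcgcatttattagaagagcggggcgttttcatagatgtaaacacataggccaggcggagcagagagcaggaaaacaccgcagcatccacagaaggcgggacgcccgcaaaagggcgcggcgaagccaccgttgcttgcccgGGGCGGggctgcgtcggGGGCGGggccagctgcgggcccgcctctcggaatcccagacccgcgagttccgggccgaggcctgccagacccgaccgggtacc
Mrpl32: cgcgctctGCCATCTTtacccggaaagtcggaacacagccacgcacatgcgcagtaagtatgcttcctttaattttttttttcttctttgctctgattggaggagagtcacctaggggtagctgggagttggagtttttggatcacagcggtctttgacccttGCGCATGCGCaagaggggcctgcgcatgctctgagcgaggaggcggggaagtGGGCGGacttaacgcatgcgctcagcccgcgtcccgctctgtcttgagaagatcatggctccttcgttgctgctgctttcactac
Mrps18b: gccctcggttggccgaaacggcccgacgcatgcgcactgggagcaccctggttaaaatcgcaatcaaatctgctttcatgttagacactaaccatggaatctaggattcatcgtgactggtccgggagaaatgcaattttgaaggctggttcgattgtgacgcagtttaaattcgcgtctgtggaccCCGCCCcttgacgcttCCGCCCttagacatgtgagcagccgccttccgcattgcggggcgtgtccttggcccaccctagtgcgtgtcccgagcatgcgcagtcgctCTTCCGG
Mrps15: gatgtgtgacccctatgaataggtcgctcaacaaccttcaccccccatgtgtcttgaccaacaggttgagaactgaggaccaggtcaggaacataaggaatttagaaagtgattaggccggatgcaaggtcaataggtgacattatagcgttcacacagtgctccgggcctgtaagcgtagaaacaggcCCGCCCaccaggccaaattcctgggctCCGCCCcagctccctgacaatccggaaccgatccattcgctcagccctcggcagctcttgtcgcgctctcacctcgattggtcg

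These windows lie at chr11:88204138-88204437, plus strand for Mrps23, chr9:98601630-98601929, minus strand for Mrps22, chr8:22411090-22411389, plus strand for Mrps31, chr16:18876588-18876887, minus strand for Mrpl40, chr13:14612988-14613287, minus strand for Mrpl32, chr17:35916391-35916690, minus strand for Mrps18b and chr4:126046678-126046977, plus strand for Mrps15. Mrps31 shows none of these letters and it was second among the members in MEFs, while Mrps22 and Mrps23 each have an ETS match near the start and Mrpl40 and Mrps15 have SP1 letters alone. Of the 77 members 68 matched a promoter. An ETS match was in 24 of the 68, or 35.3%, beside 9.12% of all 27025 promoters and 16.9% of the 10766 promoters of genes that reached 1 FPKM in at least 1 of the cell types. YY1 letters were in 12 member promoters (17.6%), beside 2.88% of all promoters and 4.39% of those of expressed genes. The NRF1 palindrome with its free base was in 13 (19.1%), beside 4.78% and 9.63%, and 3 of the 68 (4.41%) held it in full, beside 0.977% and 1.93%. SP1 letters were in 34 of the 68, beside 35.9% of all promoters and 62.7% of those of expressed genes. TATAAA was in 4 (5.88%), beside 14.2% and 7.81%. A match is a run of letters and not a bound site. In MEFs the members with an ETS match had a median log2 fold change of 0.28 and those without one 0.20, and for the NRF1 letters the medians were 0.33 and 0.21. With and without the YY1 letters the MEF medians were 0.21 and 0.22, for SP1 they were 0.18 and 0.28, and for TATAAA 0.07 and 0.22. For ETS the medians with and without a match were -0.03 and -0.02 in hepatocytes, and ES cells gave 0.12 and 0.07.

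In MEFs most mitochondrial ribosomal protein genes had a higher level in Ad-Cre than in Ad-Luc cells. The log2 fold change was above 0 in 64 of 77 members and below 0 in 13, with a median of 0.22, against 0.04 over the 12498 genes counted in MEFs, of which 54.2% were above 0. Past 1.5-fold, 5 members were higher and 0 lower, where 8.16% of all genes were higher and 8.49% lower. Past 1.2-fold, 34 members (44.2%) were higher and 2 (2.60%) lower, where 25.6% of all genes were higher and 21.6% lower. The summed level of the members was 2333 FPKM in Ad-Cre and 1966 FPKM in Ad-Luc MEFs. The cytosolic ribosomal proteins had a median of 0.26, and on a scale centred on that list the median of the members turned to -0.039, with 35 above 0 and 42 below 0, and with 1 higher and 2 lower past 1.5-fold.

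The 5 members past 1.5-fold in MEFs, of 77, were all mitochondria-specific proteins, 2 of the large and 3 of the small subunit. Past the same fold 8.16% of all genes were higher, and the share of members was not above this. Of the 9342 genes in the level range of the members, 492 were higher and 684 lower past 1.5-fold. The share higher among these was below that of the members, so the order depends on the genes set beside them. Mrpl38, a protein of the large subunit (chromosome 11, 116131816 to 116138868, mm10), had 53.7 FPKM in Ad-Cre and 29.3 FPKM in Ad-Luc MEFs, a log2 fold change of 0.87 and the highest of all members in MEFs. Mrps31 (chromosome 8, 22411339 to 22429665) had 14.2 and 7.999 FPKM in Ad-Cre and Ad-Luc MEFs, a log2 fold change of 0.82. Mrps23 (chromosome 11) had 36.1 and 20.8 FPKM, a log2 fold change of 0.79. These are small-subunit proteins, and so is Mrps22 (chromosome 9, 98588729 to 98601679), whose human gene is mutated in a mitochondrial disease and which had 21.9 FPKM in Ad-Cre and 12.8 FPKM in Ad-Luc MEFs, a log2 fold change of 0.77. Mrpl40 (chromosome 16, 18872017 to 18876637), a protein of the large subunit, had 17.2 FPKM in Ad-Cre and 10.7 FPKM in Ad-Luc MEFs, a log2 fold change of 0.68. Next came Mrpl34, a small protein of bacterial type in the large subunit, with 37.7 and 25.4 FPKM and a log2 fold change of 0.57, short of 1.5-fold. In hepatocytes and ES cells none of these 6 passed 1.5-fold.

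By class, the genes of mitochondria-specific proteins had higher log2 fold changes than those of bacterial-type proteins in MEFs. The 31 mitochondria-specific members had a median log2 fold change of 0.35, with 30 above 0, and 19 (61.3%) higher and 0 lower past 1.2-fold. For the 45 bacterial-type members the median was 0.20, with 34 (75.6%) above 0, and 15 (33.3%) higher and 2 (4.44%) lower past 1.2-fold. Of all genes counted in MEFs 54.2% were above 0, and 25.6% were higher and 21.6% lower past 1.2-fold. The small subunit showed the wider gap, with a median of 0.46 over its 10 mitochondria-specific members, all above 0, and 0.12 over its 16 bacterial-type members. In the large subunit the medians were 0.31 over 21 and 0.21 over 29 members. The difference between these medians does not depend on how the groups are scaled. With Mrps18a and Mrps18b left out, the 29 other mitochondria-specific members had a median of 0.35 in MEFs, and with both counted as bacterial-type the median of the 47 was 0.21. The levels stood in the other order, with a median of 18.98 FPKM in Ad-Cre and 16.8 FPKM in Ad-Luc MEFs for the mitochondria-specific members and of 25.9 and 23.99 FPKM for the bacterial-type ones. In hepatocytes the medians of mitochondria-specific and bacterial-type members were -0.04 and -0.02, and in ES cells both were 0.07. Since the classes hold different genes and there is 1 value per gene and group, no test of the difference was made.

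**Figure D1:**
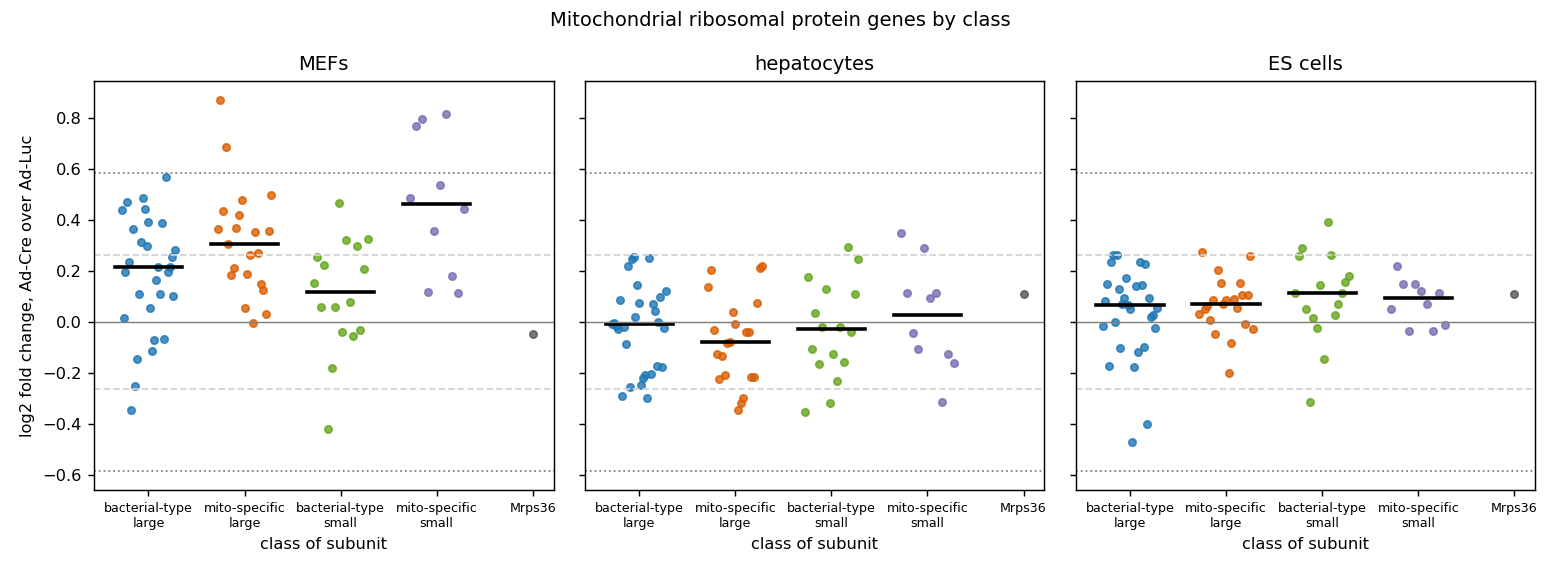
Log2 ratio of Ad-Cre to Ad-Luc values (vertical axis) for each of the 77 members by class of subunit (horizontal axis) in MEFs, hepatocytes and ES cells; each point is a gene, the black bar is the median of a class, and the dashed and dotted lines mark 1.2-fold and 1.5-fold. In MEFs the median of the mitochondria-specific small-subunit class is 0.46 and 5 points lie above the upper dotted line, and in the other cell types no point passes 1.5-fold.

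Lower levels in Ad-Cre MEFs were few and were found mainly among bacterial-type members. Mrps15, a small-subunit protein that binds ribosomal RNA, had 18.6 FPKM in Ad-Cre and 24.9 FPKM in Ad-Luc MEFs, a log2 fold change of -0.42. Mrpl14, a large-subunit protein at the face that meets the small subunit, had 16.6 and 21.2 FPKM, a log2 fold change of -0.35. These were the 2 members lower past 1.2-fold. Mrpl16, near the peptidyl transferase centre, followed with 9.98 and 11.9 FPKM (-0.25), and Mrps16 with 38.7 and 43.9 FPKM (-0.18). Mrpl17 had 5.81 FPKM in Ad-Cre and 6.44 FPKM in Ad-Luc MEFs (-0.15) and Mrpl24 had 25.8 and 28.02 FPKM (-0.12). Each of these 6 is of the bacterial type, and apart from Mrps15 and Mrpl14 the changes were under 1.2-fold.

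In hepatocytes the members had levels close to those of the control. The median log2 fold change was -0.02, against 0.02 over 12008 genes, with 30 members above 0 and 47 below 0. Past 1.5-fold, 0 members were higher and 0 lower, where 6.23% of all genes were higher and 5.71% lower. Past 1.2-fold, 3 were higher and 8 lower, where the shares of all genes were 18.8% and 15.9%. The summed level was 2092 FPKM in Ad-Cre and 2145 FPKM in Ad-Luc hepatocytes, while the median level was higher in Ad-Cre (21.3 against 20.5 FPKM), so that the direction for the group depends on the summary. It also depends on the scale, since 45 members were above 0 after centring on the cytosolic ribosomal proteins and 41 after bringing both groups to the same summed FPKM.

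Mrps18b, a small-subunit protein that is among 3 mammalian relatives of a bacterial protein, had the highest log2 fold change in hepatocytes, with 70.6 FPKM in Ad-Cre and 55.4 FPKM in Ad-Luc cells and a log2 fold change of 0.35. Mrps5 followed with 25.6 and 20.9 FPKM (0.29) and Mrps26, a mitochondria-specific small-subunit protein, with 32.7 and 26.7 FPKM (0.29). Mrpl2 had 38.8 FPKM in Ad-Cre and 32.5 FPKM in Ad-Luc hepatocytes (0.25), Mrpl3 had 19.7 and 16.6 FPKM (0.25), and Mrpl19 had 7.32 and 6.16 FPKM (0.25). Mrpl2 and Mrpl3 are core proteins near the peptidyl transferase centre. At the other end Mrps10, of the small subunit, had 19.7 FPKM in Ad-Cre and 25.2 FPKM in Ad-Luc hepatocytes, a log2 fold change of -0.35. Mrpl49 had 11.8 and 15.1 FPKM (-0.35), Mrps18c 25.5 and 31.8 FPKM (-0.32), Mrpl50 8.81 and 11.004 FPKM (-0.32), Mrps33 13.3 and 16.6 FPKM (-0.31) and Mrpl51 11.8 and 14.5 FPKM (-0.30). Of these 6, Mrpl49, Mrpl50, Mrps33 and Mrpl51 are mitochondria-specific.

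In ES cells the members again moved little. The median log2 fold change was 0.07, against 0.01 over 12072 genes, with 57 members above 0 and 20 below 0. Past 1.5-fold, 0 members were higher and 0 lower, where 2.15% of all genes were higher and 0.746% lower. Past 1.2-fold, 4 were higher and 3 lower, beside 9.92% and 6.83% of all genes. The sign of the median turned on 2 other scales, with -0.0396 at the same summed FPKM, where 29 members were above 0, and -0.13 after centring on the cytosolic ribosomal proteins, where 13 were. In the ES table the summed FPKM of all genes differed by 0.11 on the log2 scale between Ad-Cre and Ad-Luc cells. The 4 higher members included Mrps21, with 290.1 FPKM in Ad-Cre and 220.9 FPKM in Ad-Luc cells (0.39), Mrps12, which sets the accuracy of decoding, with 107.5 and 87.9 FPKM (0.29), and Mrpl38, with 108 and 89.4 FPKM (0.27). The fourth, Mrpl16, had 35.9 and 29.9 FPKM (0.26), followed by Mrpl14 with 41.1 and 34.2 FPKM (0.26) and Mrps24 with 35.1 and 29.2 FPKM (0.26). Mrpl23, a large-subunit protein at the exit tunnel, was the lowest, with 63.2 FPKM in Ad-Cre and 87.7 FPKM in Ad-Luc cells, a log2 fold change of -0.47. Mrpl34 had 69.5 and 91.8 FPKM (-0.40) and Mrps15 had 63.2 and 78.6 FPKM (-0.31), and these were the 3 lower past 1.2-fold. Mrpl49 (-0.20), Mrpl24 (-0.18) and Mrpl12 (-0.17) were lower by less.

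**Figure D2:**
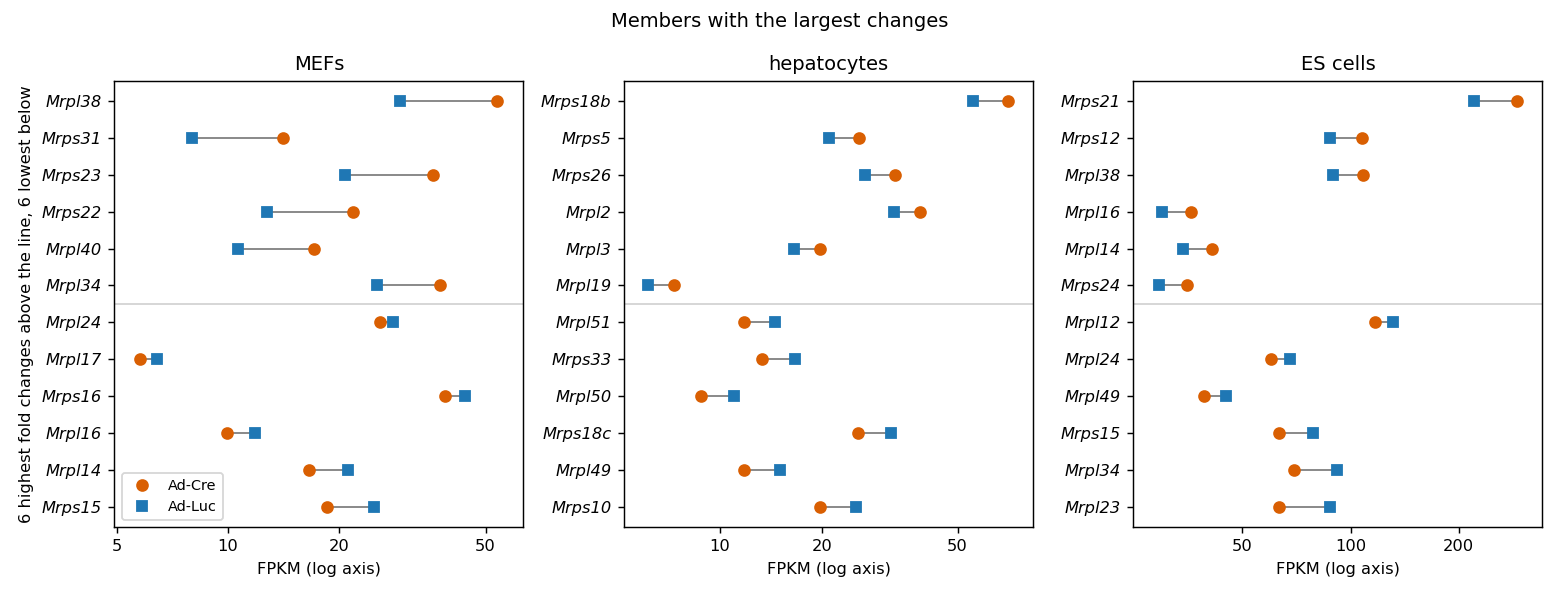
FPKM on a log axis of the 6 members with the highest log2 fold changes (upper part of each panel) and the 6 with the lowest (lower part) in MEFs, hepatocytes and ES cells; the orange circle is Ad-Cre and the blue square Ad-Luc. The widest gaps are those of Mrpl38, Mrps31, Mrps23, Mrps22 and Mrpl40 in MEFs, such as 53.7 FPKM in Ad-Cre against 29.3 FPKM in Ad-Luc cells for Mrpl38.

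The cell types did not share a direction for most members. A total of 24 members were above 0 in all 3 cell types and 3 were below 0 in all 3, and 0 passed 1.2-fold the same way in all 3. In MEFs 37 members were above 0 that were below 0 in hepatocytes, and 27 were above 0 in both. The log2 fold change in MEFs was above that in hepatocytes in 67 of 77 members and above that in ES cells in 56. Many of these changes were small, as 32 members passed 1.2-fold in no cell type. The same counts across cell types were not made over all genes, so they do not set the members apart from other genes. The counts also depend on the scale. After centring each cell type on its cytosolic ribosomal proteins, 3 members were above 0 and 20 below 0 in all 3 cell types, and 9 were above 0 in MEFs and below 0 in hepatocytes. On that scale MEFs were above hepatocytes in 30 of 77 members and above ES cells in 50. At the same summed FPKM 13 members were above 0 and 5 below 0 in all 3, and MEFs were above hepatocytes in 64. Mrps18c, the mitochondrial protein closest to bacterial protein S18, was on opposite sides past 1.2-fold, with 47.7 FPKM in Ad-Cre and 34.5 FPKM in Ad-Luc MEFs (0.47) and with 25.5 and 31.8 FPKM in hepatocytes (-0.32). Its relative Mrps18b was higher past 1.2-fold in both, with 65.6 FPKM in Ad-Cre and 46.8 FPKM in Ad-Luc MEFs (0.48). Mrps18a, the relative in the large subunit, had log2 fold changes of 0.35, 0.21 and 0.26 in MEFs, hepatocytes and ES cells, and Mrpl38 had 0.87, 0.20 and 0.27. Mrps15 was lower in all 3 cell types, at -0.42, -0.17 and -0.31. Across the 77 genes Pearson's r of the log2 fold changes was 0.32 between MEFs and hepatocytes, 0.10 between MEFs and ES cells and 0.32 between hepatocytes and ES cells. Over all genes counted in both it was 0.32 (10901 genes), 0.0050 (10647 genes) and -0.08 (10458 genes) for the same pairs. Spearman's rho for these pairs was 0.33, 0.03 and 0.29 over the members and 0.31, 0.28 and 0.09 over all genes. For MEFs and ES cells the 2 measures thus put the members and all genes in opposite orders. Genes are not independent replicates, and within a table all of them share the same libraries.

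**Figure D3:**
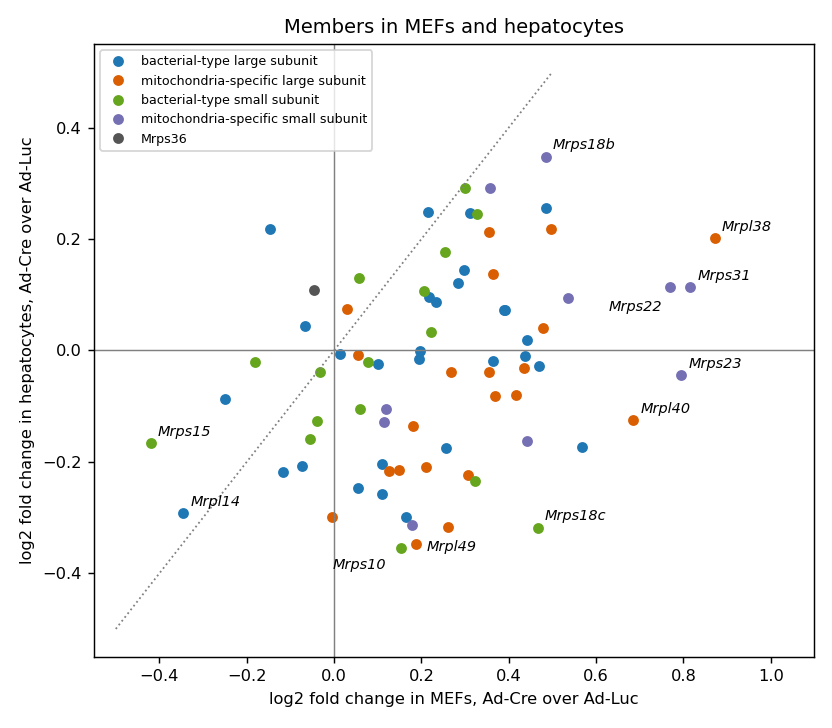
Log2 ratio of Ad-Cre to Ad-Luc values in MEFs (horizontal axis) against that in hepatocytes (vertical axis) for the 77 members, coloured by class, with a dotted line where the 2 are equal. On the deposited scale 67 of 77 points lie below the line, a count that is 30 after centring on the cytosolic ribosomal proteins, and Mrps18c stands at 0.47 in MEFs and -0.32 in hepatocytes.

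Among the members with known separate roles the changes were uneven. Mrpl12, of the stalk that recruits translation factors, had 47.3 FPKM in Ad-Cre and 34.1 FPKM in Ad-Luc MEFs (0.47), while Mrpl10, its anchor, had 27.4 and 27.1 FPKM (0.01). Mrpl45, which helps to hold the mitoribosome at the inner membrane, had 16.02 and 11.97 FPKM in Ad-Cre and Ad-Luc MEFs (0.42). Mrpl44, a protein related to RNase III, had 12.2 and 9.47 FPKM (0.37), and Mrpl47, of bacterial type, had 6.85 and 6.39 FPKM (0.10). Mrps30, in the large subunit, had 32.5 and 23.01 FPKM in Ad-Cre and Ad-Luc MEFs (0.50) and a log2 fold change of 0.22 in hepatocytes and -0.03 in ES cells. Mrps28 was at -0.06, -0.16 and 0.03 and Mrps12 at 0.06, -0.10 and 0.29 in MEFs, hepatocytes and ES cells. Mrps36, outside the ribosome, was at -0.05, 0.11 and 0.11.

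Levels of the members were higher in ES cells than in MEFs and hepatocytes, with the reserve that the tables of the cell types were normalised separately. The median member had 21.9 FPKM in Ad-Cre and 20.8 FPKM in Ad-Luc MEFs, 21.3 and 20.5 FPKM in hepatocytes, and 50.7 and 51.1 FPKM in ES cells. In Ad-Luc cells 72 of 77 members had their highest level in ES cells, 3 in hepatocytes and 2 in MEFs. The ratio of ES cells to MEFs had a median of 2.42, beside 1.25 over all genes of at least 1 FPKM in both, 2.70 over cytosolic ribosomal proteins and 2.17 over respiratory chain subunits. It was largest for Mrpl18 (8.22) and Mrpl40 (7.11) and lowest for Mrpl57 (0.867). The ratio of hepatocytes to MEFs had a median of 1.03, beside 1.05 over all genes of that level in both, 0.926 over respiratory chain subunits and 0.654 over cytosolic ribosomal proteins, and 41 members were higher in hepatocytes.

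Mrpl52, a mitochondria-specific protein, was the highest member in MEFs, with 214.1 FPKM in Ad-Cre and 167.5 FPKM in Ad-Luc cells, ahead of Mrps21 (98.6 and 78.9 FPKM), Mrpl33 (84.4 and 88.5 FPKM), Mrpl20 (85.7 and 63.1 FPKM) and Mrpl30 (71.5 and 66.2 FPKM). In hepatocytes Mrpl33 led with 162.4 and 157.6 FPKM, followed by Mrpl52, Mrps21, Mrpl38 and Mrpl18, and in ES cells Mrps21 led, followed by Mrpl52, Mrpl42, Mrpl20 and Mrpl18. Mrpl41 was among the 3 lowest in all cell types, with 3.75 FPKM in Ad-Cre and 3.02 FPKM in Ad-Luc MEFs, 1.83 and 2.16 FPKM in hepatocytes and 5.67 and 5.64 FPKM in ES cells. Its deposited locus spans 12678 bases against 982 in the GENCODE vM21 gene, and the part of this in its level was not tested. The other members at the low end were Mrpl35 (4.44 FPKM in Ad-Cre MEFs), Mrpl11 (5.08 FPKM in Ad-Cre MEFs), Mrpl17 (3.37 FPKM in Ad-Cre hepatocytes) and Mrpl57 (5.92 FPKM in Ad-Cre ES cells). The order of the levels was kept in large part between cell types, with Spearman's rho of 0.87 between MEFs and hepatocytes and 0.79 between MEFs and ES cells over the 77 Ad-Luc levels.

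**Figure D4:**
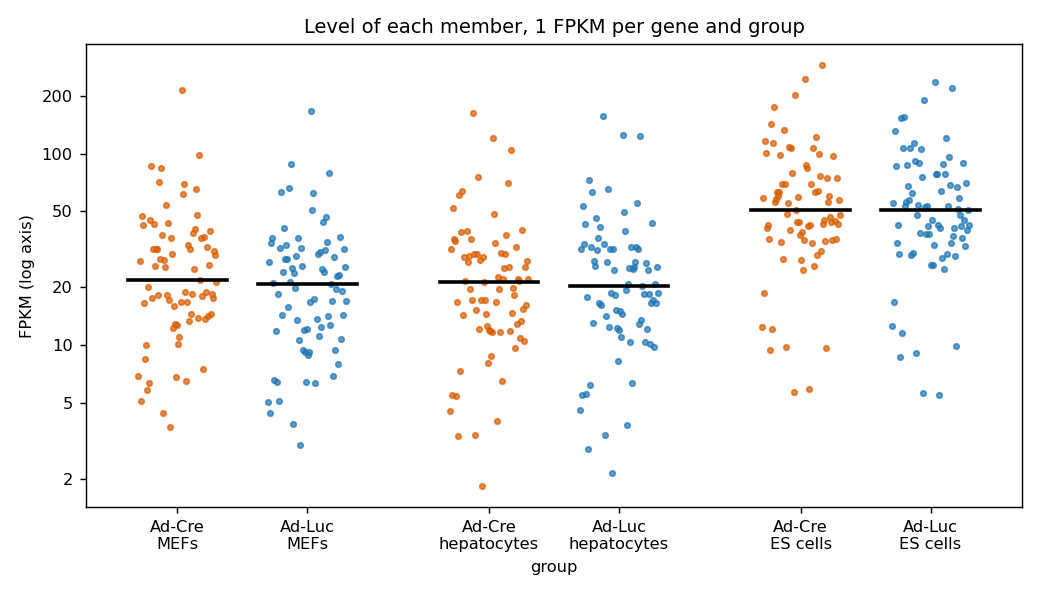
Level of each of the 77 members in FPKM on a log axis (vertical) in each group (horizontal), with Ad-Cre in orange and Ad-Luc in blue; each point is a gene and the black bar is the median. The medians are 50.7 FPKM in Ad-Cre and 51.1 FPKM in Ad-Luc ES cells and lie between 20.5 and 21.9 FPKM in the other groups.

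The members lie on 17 chromosomes as annotated by GENCODE vM21 on GRCm38, the assembly also known as mm10. Their median gene length was 7894 bases, against 23054 over the 13238 protein-coding genes that reached 1 FPKM in a group. The correlation of gene length with log2 fold change over all genes was -0.23 in MEFs and -0.30 in ES cells. For hepatocytes it was -0.0018. Among the members it was 0.07 in MEFs, 0.20 in ES cells and 0.27 in hepatocytes. The values of all genes set beside the members were not matched for length. The part of length in the differences was not tested. A start site of another coding gene on the opposite strand within 1000 bases upstream, or overlapping by up to 200 bases, was found for 23 members (29.9%), against 11.02% of the 13238 genes. Mrps18b shares such a region with Ppp1r10, a regulatory subunit of protein phosphatase 1, whose start lies 45 bases away and which was also higher in hepatocytes, with a log2 fold change of 1.02. Mrpl40 shares one with the histone chaperone gene Hira, which was at 0.17 in MEFs, where Mrpl40 was at 0.68. Mrps34 and its neighbour Eme2 were at 0.11 and 0.87 in MEFs. In MEFs the partners of 22 members had a median log2 fold change of 0.10 and the members themselves 0.28, and in hepatocytes the medians were -0.0014 and -0.09. Mrpl20 lies on the same chromosome as Ssu72, 68999 bases beyond its end, and was at 0.44, 0.02 and 0.17 in MEFs, hepatocytes and ES cells.

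Some members share their place in the genome with other genes. Another coding gene overlapped 26 of the 77 members (33.8%), against 24.4% of expressed coding genes, and the deposited locus was more than 2 times the length of the annotated gene in 7. Mrps23, one of the 5 past 1.5-fold in MEFs, is among these, with a locus of 113451 bases against 7120 in the annotation. Mrpl46 and Mrps11 overlap by 413 bases on opposite strands, so their reads cannot be told apart there unless the counting used strand, which the sources used here do not give. Mrpl46 was at 0.48, 0.04 and 0.07 and Mrps11 at 0.25, 0.18 and 0.26 in MEFs, hepatocytes and ES cells.

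The other genes of mitochondrial protein synthesis were followed in lists. Of 7 mitoribosome subunits under other names, which include Mrpl57, all were above 0 in MEFs, with a median of 0.17, led by Chchd1 with 52.6 FPKM in Ad-Cre and 39.8 FPKM in Ad-Luc cells (0.40) and Ptcd3 with 22.2 and 17.9 FPKM (0.30). Dap3 (0.05), Aurkaip1 (0.22), Gadd45gip1 (0.17) and Ict1 (0.15), the last a hydrolase that frees stalled ribosomes, were higher by less. Of 15 translation factors 14 were above 0 in MEFs, with a median of 0.16 and 4 (26.7%, beside 25.6% of all genes) higher past 1.2-fold, Lrpprc the most with 25.5 and 18.4 FPKM (0.46). Among 26 assembly factors that reached 1 FPKM, 10 (38.5%) were higher and 0 lower past 1.2-fold in MEFs. The 2 past 1.5-fold modify ribosomal RNA of the large subunit, Ftsj2 (6.21 and 3.04 FPKM, 1.01) and Mrm1 (8.09 and 4.01 FPKM, 0.99). The same pair led in hepatocytes, where Mrm1 had 8.45 FPKM in Ad-Cre and 3.19 FPKM in Ad-Luc cells (1.38) and Ftsj2 had 7.47 and 4.62 FPKM (0.68), and the list had a median of 0.14, with 5 (19.2%, beside 18.8% of all genes) higher and 1 lower past 1.2-fold.

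Mitochondrial aminoacyl-tRNA synthetases load tRNAs with amino acids, and Qrsl1, Pet112 and Gatc encode the amidotransferase that completes the loading for glutamine. Of the 20 genes in this list 14 were above 0 in MEFs (beside 54.2% of all genes) and 17 in hepatocytes (beside 53.9%). Yars2, for tyrosine, had 27.1 FPKM in Ad-Cre and 16.7 FPKM in Ad-Luc MEFs (0.70), and Lars2, for leucine, had 159.2 and 365 FPKM (-1.20), the only one lower past 1.5-fold. Lars2 stood far above the rest of the list in MEFs, while Ad-Luc hepatocytes had 63.8 FPKM and Ad-Luc ES cells 53.7 FPKM of it. Whether all fragments counted for Lars2 in MEFs come from its messenger RNA was not tested. Transcription and RNA processing factors had a median of 0.20 in MEFs, with Trmt10c, a part of mitochondrial RNase P, at 21.9 and 14.4 FPKM (0.60) and Polrmt, the mitochondrial RNA polymerase, at 21.6 and 15.5 FPKM (0.47). In ES cells the list had a median of -0.01, with Tfb2m at 8.72 and 10.9 FPKM (-0.31). Among regulators, the GABP subunit gene Gabpb1 was higher in MEFs, with 17.9 and 11.97 FPKM (0.58), and in hepatocytes, with 17.7 and 11.8 FPKM (0.59), and was at 0.018 in ES cells. The other GABP genes did not pass 1.2-fold in MEFs or hepatocytes, with Gabpa at 0.07, 0.05 and -0.18 and Gabpb2 at 0.16, -0.14 and -0.27 in MEFs, hepatocytes and ES cells. In the same order Nrf1 was at 0.47, 0.37 and 0.14, Yy1 at 0.30, 0.11 and 0.03 and Sp1 at 0.04, 0.03 and -0.22. Esrra was at 0.31, 0.47 and 0.20. Myc had 70.9 FPKM in Ad-Cre and 48.7 FPKM in Ad-Luc MEFs (0.54) and 126.5 and 75.1 FPKM in hepatocytes (0.75). Tfam, which packs mitochondrial DNA, was at -0.04 in MEFs and -0.27 in hepatocytes.

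The respiratory chain subunits, the complexes that the mitoribosome serves, had medians of 0.26, -0.11 and 0.16 in MEFs, hepatocytes and ES cells, and the cytosolic ribosomal proteins of 0.26, -0.07 and 0.20. Both medians had the sign of the members' median in each cell type, and in ES cells both were above the 0.07 of the members. In hepatocytes 8 of 77 members and 15 of 77 respiratory chain genes were lower past 1.2-fold, beside 15.9% of all genes. The RNAs encoded by mitochondrial DNA were not analysed here.

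**Figure D5:**
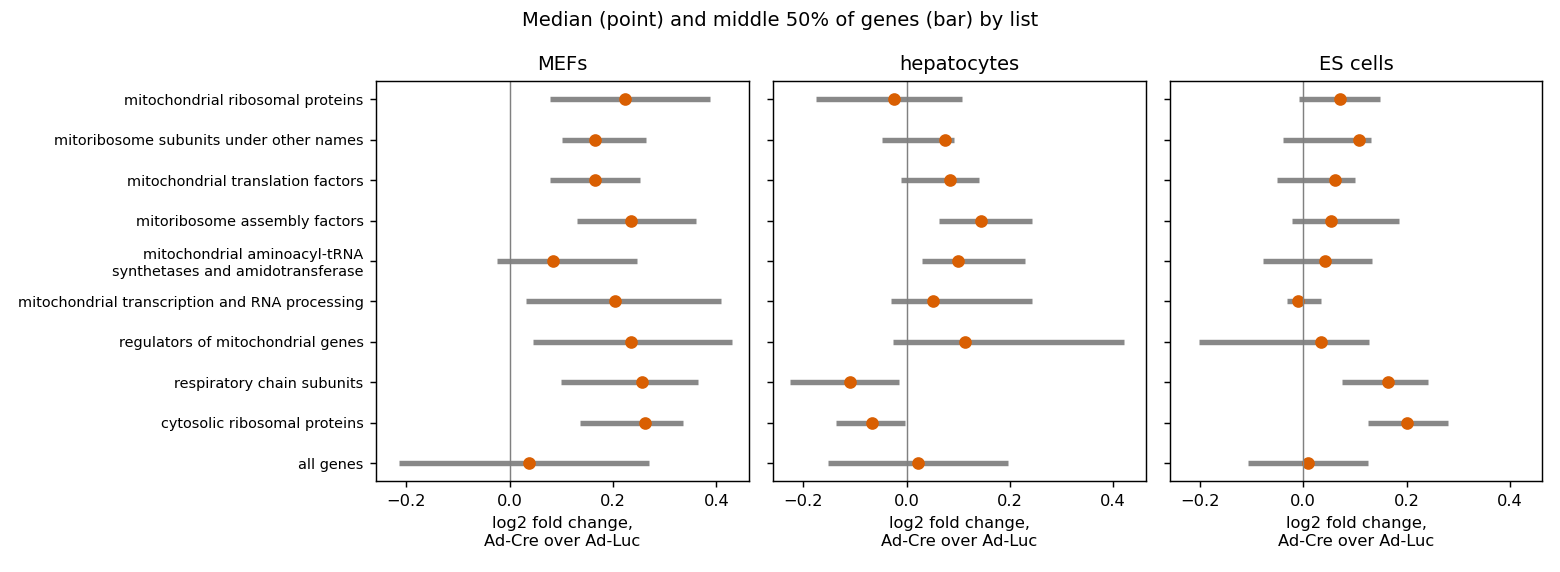
Log2 ratio of Ad-Cre to Ad-Luc values (horizontal axis) for the mitochondrial ribosomal proteins, related lists and all genes counted (vertical axis) in MEFs, hepatocytes and ES cells; the point is the median and the bar spans the middle 50% of genes. In MEFs every list has its median above that of all genes (0.04), and in hepatocytes the members (-0.02), the respiratory chain (-0.11) and the cytosolic ribosomal proteins (-0.07) lie below 0.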

How the data were processed

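RNA was sequenced from Ad-Cre and Ad-Luc MEFs, hepatocytes and ES cells (16 samples). The values used were FPKM that the authors made with Cuffdiff and deposited in 3 tables of 23996 genes, 1 value per gene and group, so single samples and depth cannot be examined. According to the notes of the submitters, the build was mm10 and the tools were Cuffdiff 2.2.0 and TopHat2 2.0.13 beside CASAVA, edgeR and DESeq. The methods of the paper give a stranded total RNA kit, a spike-in and paired-end reads. The tables also hold the authors' fold changes, test statistics, p and q, and 9 further tables hold subsets of them. None of these was used. No significance test was run, since a group has 1 value.

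Members were chosen by symbol, and the members and lists were chosen with earlier results of these data known. Log2 ratios used a pseudocount of 0.1 FPKM and were taken where the group with more had 1 FPKM or above. Named were, in each cell type, the 6 highest and 6 lowest log2 fold changes, members past 1.5-fold, those past 1.2-fold alike in all 3, the 5 highest and 3 lowest levels, members with separate roles, subunits under other names, and the largest changes in each pathway list. Mrps11 and Mrpl46, Mrpl32, Mrps34, the regulators Nrf1, Yy1 and Sp1 and the neighbours Ppp1r10, Hira and Eme2 were named after their values were seen. The comparison with promoters of expressed genes was also added then. Positions came from GENCODE vM21 (GRCm38) and promoters from RefSeq (GRCm38.p6). Alternatives were other pseudocounts, filters, folds and scalings. Counting past 1.5-fold was checked on copies of the Ad-Luc values with a planted fold of 2 and no noise. That checks the arithmetic alone. Python 3.11.15, pandas 2.3.3, numpy 2.4.6, scipy 1.17.1 and matplotlib 3.10.9 were used.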

Additional observations from a re-analysis of the deposited data

How the results depend on the processing

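With pseudocounts of 0.01 and 1, without a filter, with a minimum of 5 FPKM, without Mrps36 and after centring on the median gene, the median log2 fold changes of the members moved by under 0.1 and their counts past 1.5-fold stayed within 1.5 times the reported ones. Centring on the cytosolic ribosomal proteins moved all genes by 0.26 (MEFs), -0.07 (hepatocytes) and 0.20 (ES cells). The median then became -0.039 in MEFs and -0.13 in ES cells, with 1 member higher and 2 lower past 1.5-fold in MEFs and 2 lower in ES cells. At the same summed FPKM the ES median became -0.0396. With a fold of 1.2 the counts higher and lower were 34 and 2 (MEFs), 3 and 8 (hepatocytes) and 4 and 3 (ES cells), and with a fold of 2 there were 0 higher in MEFs. After centring on the cytosolic ribosomal proteins, 29 MEF, 15 hepatocyte and 44 ES values of the 77 members changed sign, and at the same summed FPKM 0, 11 and 28 did. Some members named for their fold change or level changed sign although their reported log2 fold change was over 0.1 in size. On the first scale in MEFs they were Mrpl30 (-0.15), Mrpl35 (-0.065), Mrpl11 (-0.068), Mrpl3 (-0.047), Mrps10 (-0.11), Mrpl49 (-0.074), Mrps33 (-0.083), Mrpl18 (-0.15) and Mrpl42 (-0.080). In ES cells they were Mrps23 (-0.054), Mrpl17 (-0.073), Mrpl20 (-0.029), Mrpl30 (-0.056), Mrpl11 (-0.052), Mrps26 (-0.051), Mrps10 (-0.086), Mrps18c (-0.055) and Mrpl57 (-0.094). Members named for other reasons that did so on this scale were Mrps11 and Mrps34 in MEFs and Mrps34, Mrps36 and Mrpl45 in ES cells. Mrpl57 (-0.0027) was among 3 members of that size that changed sign in ES cells at the same summed FPKM. The class medians moved by under 0.1 without Mrps18a and Mrps18b or with both counted as bacterial-type, a choice made after seeing the data. The shift of each scale is its construction, and which scale is nearer to the cells was not tested. No paired analysis was possible because each group has 1 deposited value per gene, and for the same reason no sample could be left out. With no value per sample, the error and depth behind each level are unknown.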
